A study of Homo sapiens with 15 samples.

Results

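The 40 genes described here are interferon-stimulated genes, that is, genes whose transcription cells are known to raise after contact with interferon or viral RNA. They were taken by symbol, with earlier results of these data known, from RNA sequencing of LNCaP. LNCaP is an established human prostate cancer line that responds to androgen. All 40 were among the 26443 genes with values in the deposited table, and 28 of them were among the 12711 genes that could be tested, those with at least 1 RPKM (reads per kilobase of gene model, scaled to the depth of the library) in at least 3 of 15 libraries. The cells, labelled wild type, had been infected with lentivirus for 4-5 days, the control cells too. The groups were the control shRNA vector pLKO, shPALI1, shG9a, shJarid2 and shsuz12, with 3 libraries each and 1 hairpin name per target. SUZ12 and JARID2 belong to PRC2, which methylates lysine 27 of histone H3, PALI1 is a PRC2 accessory protein, and G9a places methyl groups on lysine 9 of the same histone. The title of the series places PALI1 between PRC2 and G9a, and the comparisons here ask how the interferon-stimulated genes stood under each hairpin.

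As background, type I interferons bind a receptor of IFNAR1 and IFNAR2, whose kinases TYK2 and JAK1 phosphorylate STAT2. With IRF9 it enters the factor ISGF3, which binds interferon-stimulated response elements (ISRE) in promoters. Many of the genes it switches on are sensors of viral RNA, enzymes acting on double-stranded RNA, the ubiquitin-like protein ISG15 and membrane proteins that block virus entry or release. Sensors of the RIG-I family signal through MAVS and the kinases TBK1 and IKBKE to IRF3 and IRF7, which induce interferon itself. LNCaP cells are known for very low JAK1.

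The libraries held about 10560000 to 19360000 reads, worked out from the steps in the RPKM of short RNA genes, so a 2 kb gene at 1 RPKM rested on 21.1 to 38.7 reads. Each targeted gene was low in its own group: C10orf12, the part of the LCOR locus that distinguishes PALI1, was at 23.8% of pLKO in shPALI1, EHMT2 (G9a) at 25.7% in shG9a, JARID2 at 18.3% in shJarid2 and SUZ12 at 12.5% in shsuz12 (limma adjusted p from 7.1e-10 to 0.00013). Replicate 3 of shJarid2 stood apart from its group, with a lowest correlation across genes of 0.974 against 0.986 or more in the other groups. The 9 prostate and LNCaP markers were all tested and summed to 2082 to 2303 RPKM in pLKO, 850 to 962 in shPALI1, 1043 to 1101 in shG9a, 1662 to 1956 in shJarid2 and 1321 to 1412 in shsuz12. Immune cell markers were near 0: PTPRC, which all white blood cells carry, reached at most 0.018 RPKM, and CD3E and MS4A1 were at 0 in every library. The 11 immune markers summed to 2.36 to 3.30 RPKM in pLKO, 4.29 to 4.94 in shPALI1, 2.73 to 3.47 in shG9a, 3.60 to 4.97 in shJarid2 and 2.18 to 2.81 in shsuz12. Nearly all of that was CD68, a lysosomal gene at up to 4.85 RPKM, and the other 10 immune markers were at 0.240 RPKM or less. Of the 4 endothelial markers, KDR, PECAM1 and CDH5 reached at most 0.0956 RPKM and VWF 2.38. Of the 6 fibroblast markers, COL1A2, DCN and PDGFRA reached at most 0.058 RPKM, while COL1A1 reached 5.45, COL3A1 2.19 and LUM 1.40. VWF rose by 0.88 ± 0.09 on the log2(RPKM + 1) scale under shG9a, COL3A1 rose by 1.24 ± 0.09 under shPALI1 and COL1A1 fell by 1.20 ± 0.10 under shJarid2 (limma adjusted p = 2.8e-06, 1.8e-07 and 2.5e-07), and LUM was highest in shsuz12. Prostate markers were lower in shPALI1, shG9a and shsuz12, with 8, 6 and 7 of the 9 falling. In shJarid2 4 rose and 3 fell. Of all tested genes, 25.1%, 24.7% and 32.8% fell in shPALI1, shG9a and shsuz12, while in shJarid2 23.8% rose and 27.2% fell. CD68 was higher in shPALI1 and shJarid2. The part of all these markers in the results below was not tested.

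The promoters of the list share a sequence feature that the choice of genes by symbol did not use. In RefSeq windows from 250 bases before to 50 after a start site (GRCh38.p14), the ISRE core was searched on both strands as GAAA, any 2 bases and GAAA. It was present for 22 of the 32 listed genes that had a window, and in 4.38% of all 27305 genes with windows. Gamma-activated sites (GAS), an element of the interferon gamma response, were found for 9 of the 32 and for 9.38% of all genes. A match is a run of letters and not a shown binding site, and a window without a match is not shown to lack one. The 9 stretches below are of 80 bases each, on the strand of the gene and 5′ to 3′, with ISRE core matches in capitals. They are shown for genes on which the results turn: IFIT1, IFI6, IFI44 and IFITM1 rose under shPALI1, and IFI6, IFITM1, IFITM3, BST2, IFIH1, ISG15 and HERC5 fell under shsuz12.
IFIT1, chr10:89392478-89392557, plus strand: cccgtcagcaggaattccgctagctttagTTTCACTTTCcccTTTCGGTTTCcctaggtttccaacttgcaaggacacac
IFI6, chr1:27672273-27672352, minus strand: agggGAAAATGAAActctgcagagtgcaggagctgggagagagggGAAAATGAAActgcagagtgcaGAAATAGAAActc
IFI44, chr1:78649709-78649788, plus strand: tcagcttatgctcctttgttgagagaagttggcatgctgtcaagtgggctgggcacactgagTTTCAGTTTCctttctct
IFITM1, chr11:313964-314043, plus strand: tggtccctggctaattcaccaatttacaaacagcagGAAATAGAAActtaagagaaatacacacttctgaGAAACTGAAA
IFITM3, chr11:320861-320940, minus strand: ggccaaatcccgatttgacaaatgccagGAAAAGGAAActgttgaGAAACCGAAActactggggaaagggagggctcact
BST2, chr19:17405713-17405792, minus strand: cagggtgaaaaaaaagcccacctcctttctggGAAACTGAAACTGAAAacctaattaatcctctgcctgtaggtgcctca
IFIH1, chr2:162318796-162318875, minus strand: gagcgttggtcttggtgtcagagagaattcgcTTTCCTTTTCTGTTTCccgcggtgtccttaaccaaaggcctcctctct
ISG15, chr1:1013352-1013431, plus strand: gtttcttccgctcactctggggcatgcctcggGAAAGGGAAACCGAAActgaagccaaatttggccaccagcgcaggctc
HERC5, chr4:88456984-88457063, plus strand: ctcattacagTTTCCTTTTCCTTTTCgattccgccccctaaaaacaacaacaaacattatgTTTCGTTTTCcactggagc
IFI6 held 3 matches, whose first bases lay 156, 115 and 93 bases before the start site. IFIT1 held 2, at 116 and 103 bases before it. In BST2, IFIH1, ISG15 and HERC5 matches overlapped, so that 2 of them share a GAAA. DDX58, which encodes RIG-I, held no match in its window. PARP9 and DTX3L, transcribed in opposite directions from a shared promoter, held the same match.

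The 28 tested genes rose and fell in different proportions under the 4 hairpins. A gene was called where the limma adjusted p (Benjamini-Hochberg over 12711 genes) was under 0.05 on the log2(RPKM + 1) scale, which makes changes of low genes smaller than their RPKM ratios. Under shPALI1, 10 rose and 4 fell, while 16.5% of all tested genes rose and 25.1% fell; the median log2 change of the 28 was 0.24, against -0.05 over all genes. DDX58, IFIT1, IFIT2, IFI6 and IFI44 rose by about 1 log2 unit or more. Under shG9a, 4 rose and 4 fell, with 18.4% and 24.7% of all genes, and the medians were -0.06 and -0.04. Under shJarid2, 4 rose and 11 fell, with 23.8% and 27.2% of all genes, and the medians were -0.25 and -0.04. Under shsuz12, 2 rose and 17 fell, with 21.1% and 32.8% of all genes, and the medians were -0.33 and -0.08. The 4 comparisons share the pLKO libraries, so their counts are not independent of each other. The list was chosen with earlier results of these data known, so its counts beside all genes are a description and not an independent test. The labels do not say whether replicates came from separate cultures, so a p-value here weighs a difference only against the spread of the libraries sequenced, a spread that can be technical. In bulk RNA, fewer cells expressing a gene and less RNA per cell cannot be told apart.

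The count of calls rests in part on the filter. IFIT1 and IFIT2 reached 1 RPKM only in shPALI1, HERC5 only in pLKO, and SP100 only in shG9a and shJarid2, so they were tested only because of the groups in which they were high. Among the other 24 tested genes, 8 rose and 3 fell under shPALI1, 4 and 3 under shG9a, 4 and 10 under shJarid2, and 2 and 15 under shsuz12. Leaving out single libraries moved some of the counts over 28 genes: falls under shPALI1 numbered 2 without pLKO replicate 1, without pLKO replicate 2 or without shPALI1 replicate 2. Falls under shG9a numbered 1 without shG9a replicate 3, and rises under shsuz12 numbered 1 without pLKO replicate 2, shsuz12 replicate 1 or shsuz12 replicate 2. Without shJarid2 replicate 3, the library that stood apart, 4 rose and 12 fell under shJarid2. The split under shG9a moved with the scaling: quantile normalization gave 5 rises and 3 falls, median ratio scaling 6 and 3, and values rescaled to a common sum (TPM) 6 and 2. Under shJarid2, 5 rose and 8 fell with quantile normalization, and falls numbered 7 in a model of the 6 libraries alone.

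**Figure D1:**
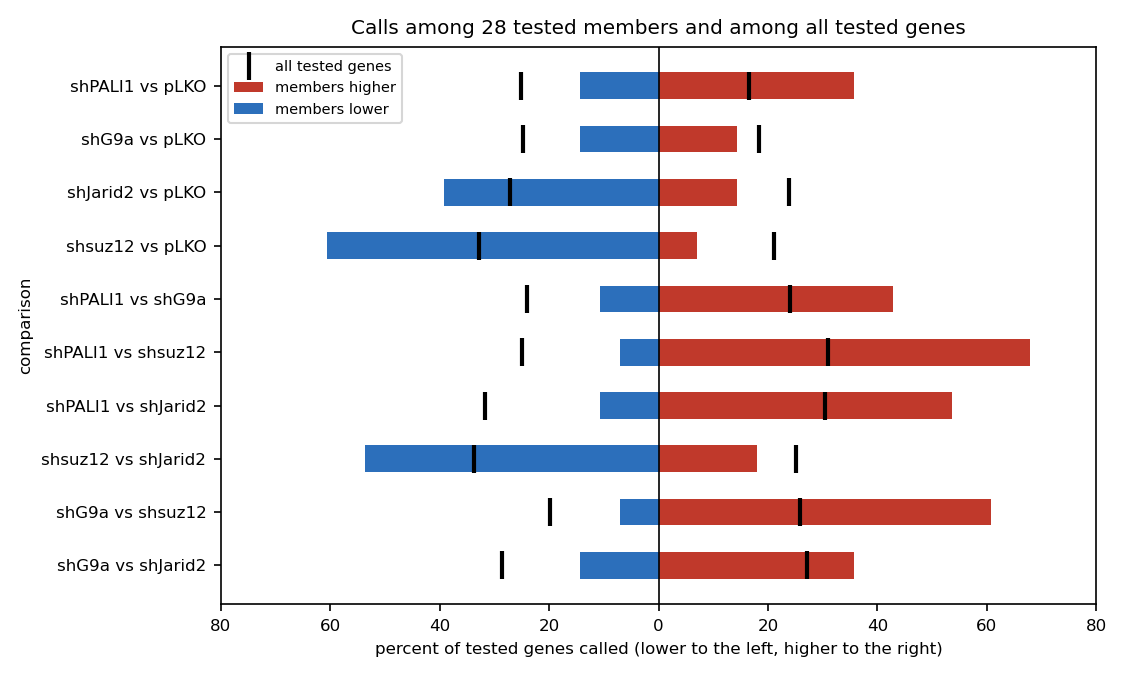
Percent of the 28 tested interferon-stimulated genes called higher (red, to the right) or lower (blue, to the left) at an adjusted p under 0.05, for each of 10 comparisons, with black ticks for the percent of all 12711 tested genes. The bars reach past the ticks to the right for shPALI1 against pLKO (35.7% against 16.5%) and to the left for shsuz12 against pLKO (60.7% against 32.8%).

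Each tested gene was called in at least 1 of the 4 comparisons with pLKO: 8 in 1, 13 in 2, 6 in 3 and 1, HERC5, in 4. Being called at least once was common, with 84.9% of all tested genes. Of the 28, 9 were called higher under one hairpin and lower under another, as were 23.4% of all tested genes. The heat map of the list shows the same at the level of single libraries, where the same row can be red under one hairpin and blue under another.

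**Figure D2:**
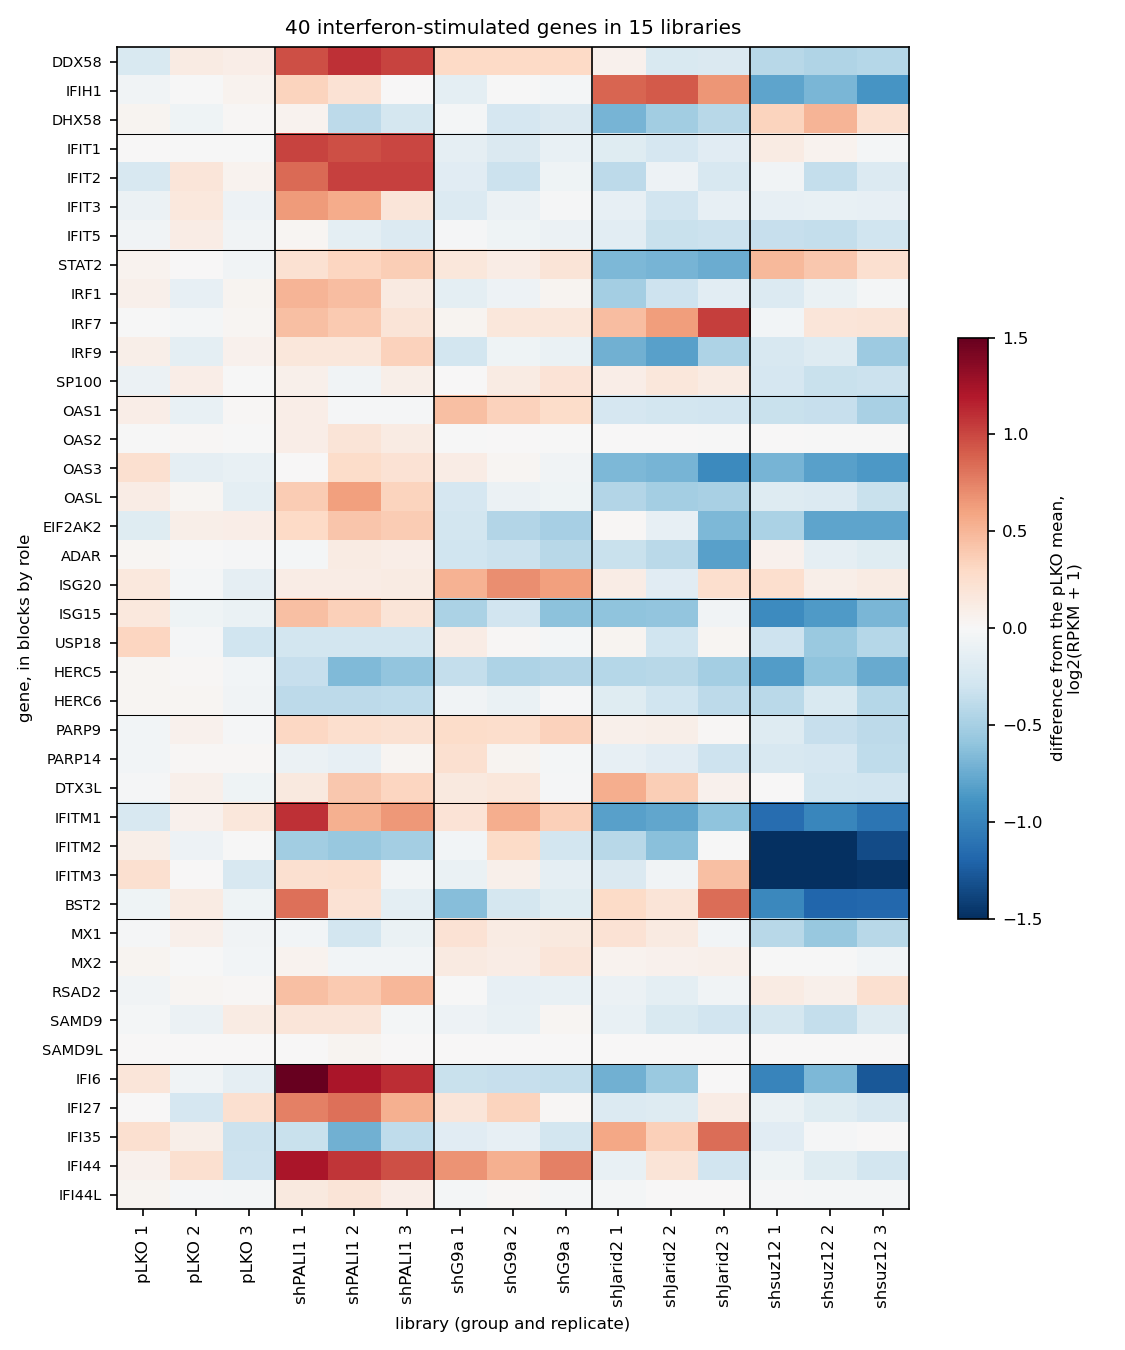
Difference of log2(RPKM + 1) from the pLKO mean for the 40 interferon-stimulated genes (rows, in blocks by role) in the 15 libraries (columns, by group and replicate), with the colour scale ending at -1.5 and 1.5. DDX58, IFIT1, IFIT2, IFI6 and IFI44 are red in the 3 shPALI1 libraries, and IFITM1, IFITM2, IFITM3 and BST2 are dark blue in the 3 shsuz12 libraries.

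The RNA sensors went in different directions. DDX58, on chromosome 9, encodes RIG-I, which binds viral RNA with a free triphosphate end. It was at 0.97, 1.52 and 1.48 RPKM in pLKO, 3.5, 3.91 and 3.65 in shPALI1, 1.84, 1.84 and 1.85 in shG9a, 1.42, 0.972 and 0.979 in shJarid2 and 0.728, 0.684 and 0.716 in shsuz12. The 3 shPALI1 libraries were the highest of the 15 and the 3 shsuz12 libraries the lowest. DDX58 rose by 1.02 ± 0.11 under shPALI1 (log2 ± SE, adjusted p = 4.1e-06), rose by 0.30 ± 0.11 under shG9a (0.034) and fell by 0.43 ± 0.11 under shsuz12 (0.0034). Its call in shG9a was lost without pLKO replicate 1 (0.16), without any 1 of the shG9a libraries (0.0744 to 0.0787) and with the 6 libraries alone (0.0568).

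IFIH1, on chromosome 2, encodes MDA5, the sensor of long double-stranded RNA. It was at 1.48, 1.55 and 1.67 RPKM in pLKO, 2.24, 1.98 and 1.58 in shPALI1, 1.33, 1.55 and 1.51 in shG9a, 3.69, 3.85 and 3.06 in shJarid2 and 0.488, 0.596 and 0.392 in shsuz12. Here shJarid2 held the 3 highest libraries and shsuz12 the 3 lowest, while pLKO overlapped both shPALI1 and shG9a. IFIH1 rose by 0.82 ± 0.10 under shJarid2 (adjusted p = 1.4e-05) and fell by 0.79 ± 0.10 under shsuz12 (1.9e-05). Its change under shPALI1 was 0.19 ± 0.10 and did not pass (0.16).

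DHX58, on chromosome 17, encodes LGP2, a relative of these sensors without a signalling domain. It was at 1.67, 1.49 and 1.64 RPKM in pLKO, 1.7, 0.973 and 1.17 in shPALI1, 1.54, 1.18 and 1.23 in shG9a, 0.604, 0.806 and 0.952 in shJarid2 and 2.27, 2.69 and 2.03 in shsuz12. The ends of its order were the reverse of those of IFIH1, with shsuz12 highest and shJarid2 lowest. DHX58 fell by 0.54 ± 0.12 under shJarid2 (adjusted p = 0.0021) and rose by 0.35 ± 0.12 under shsuz12 (0.026). The rise was lost without pLKO replicate 2 (0.0795), without shsuz12 replicate 1 (0.0517) or without shsuz12 replicate 2 (0.111). In shPALI1 it passed only without replicate 1 of that group (0.0459).

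The IFIT genes encode proteins that bind foreign RNA ends and lie together on chromosome 10, from 89283694 to 89421001 (GRCh38, GENCODE v29), in the order IFIT2, IFIT3, IFIT1 and IFIT5. IFIT1 was at 0.257, 0.252 and 0.254 RPKM in pLKO, 1.54, 1.46 and 1.51 in shPALI1, 0.14, 0.0835 and 0.162 in shG9a, 0.107, 0.0575 and 0.119 in shJarid2 and 0.371, 0.297 and 0.228 in shsuz12. All 3 shPALI1 libraries were above the 12 others, and its mean there was 5.91 times that of pLKO. Since IFIT1 met the filter only through shPALI1, high values there were a condition of its test. IFIT1 rose by 1.00 ± 0.09 under shPALI1 (adjusted p = 8.7e-07). No other call passed, although under shG9a and shJarid2 the 3 libraries lay below the 3 of pLKO (0.18 and 0.077), and the change under shJarid2 passed with a pseudocount of 0.1 (0.0341) and with TPM (0.0411).

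IFIT2 was at 0.301, 0.736 and 0.589 RPKM in pLKO, 1.76, 2.12 and 2.13 in shPALI1, 0.357, 0.226 and 0.459 in shG9a, 0.163, 0.448 and 0.299 in shJarid2 and 0.473, 0.19 and 0.333 in shsuz12. It too was highest in the 3 shPALI1 libraries, and it rose there by 0.97 ± 0.13 (adjusted p = 5.1e-05). As for IFIT1, high values in shPALI1 were a condition of the test of IFIT2. Under shJarid2 it passed as lower only without pLKO replicate 1 (0.0436). IFIT3, which the filter left out, was at 0.228, 0.464 and 0.242 RPKM in pLKO, 1.03, 0.922 and 0.488 in shPALI1, 0.129, 0.232 and 0.295 in shG9a, 0.2, 0.0719 and 0.198 in shJarid2 and 0.2, 0.208 and 0.205 in shsuz12. In a fit with no filter IFIT3 passed as higher under shPALI1 (log2 change 0.46, adjusted p = 0.0066).

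IFIT5, the last of the cluster, did not follow its neighbours. It was at 1.26, 1.53 and 1.25 RPKM in pLKO, 1.39, 1.12 and 1.03 in shPALI1, 1.31, 1.24 and 1.21 in shG9a, 1.1, 0.86 and 0.876 in shJarid2 and 0.845, 0.825 and 0.906 in shsuz12. IFIT5 did not pass under shPALI1, where it overlapped pLKO, and it fell by 0.27 ± 0.09 under shJarid2 (adjusted p = 0.022) and by 0.34 ± 0.09 under shsuz12 (0.0064). The first of these calls was lost without pLKO replicate 2 (0.09), without shJarid2 replicate 2 (0.0738) and without shJarid2 replicate 3 (0.0566).

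**Figure D3:**
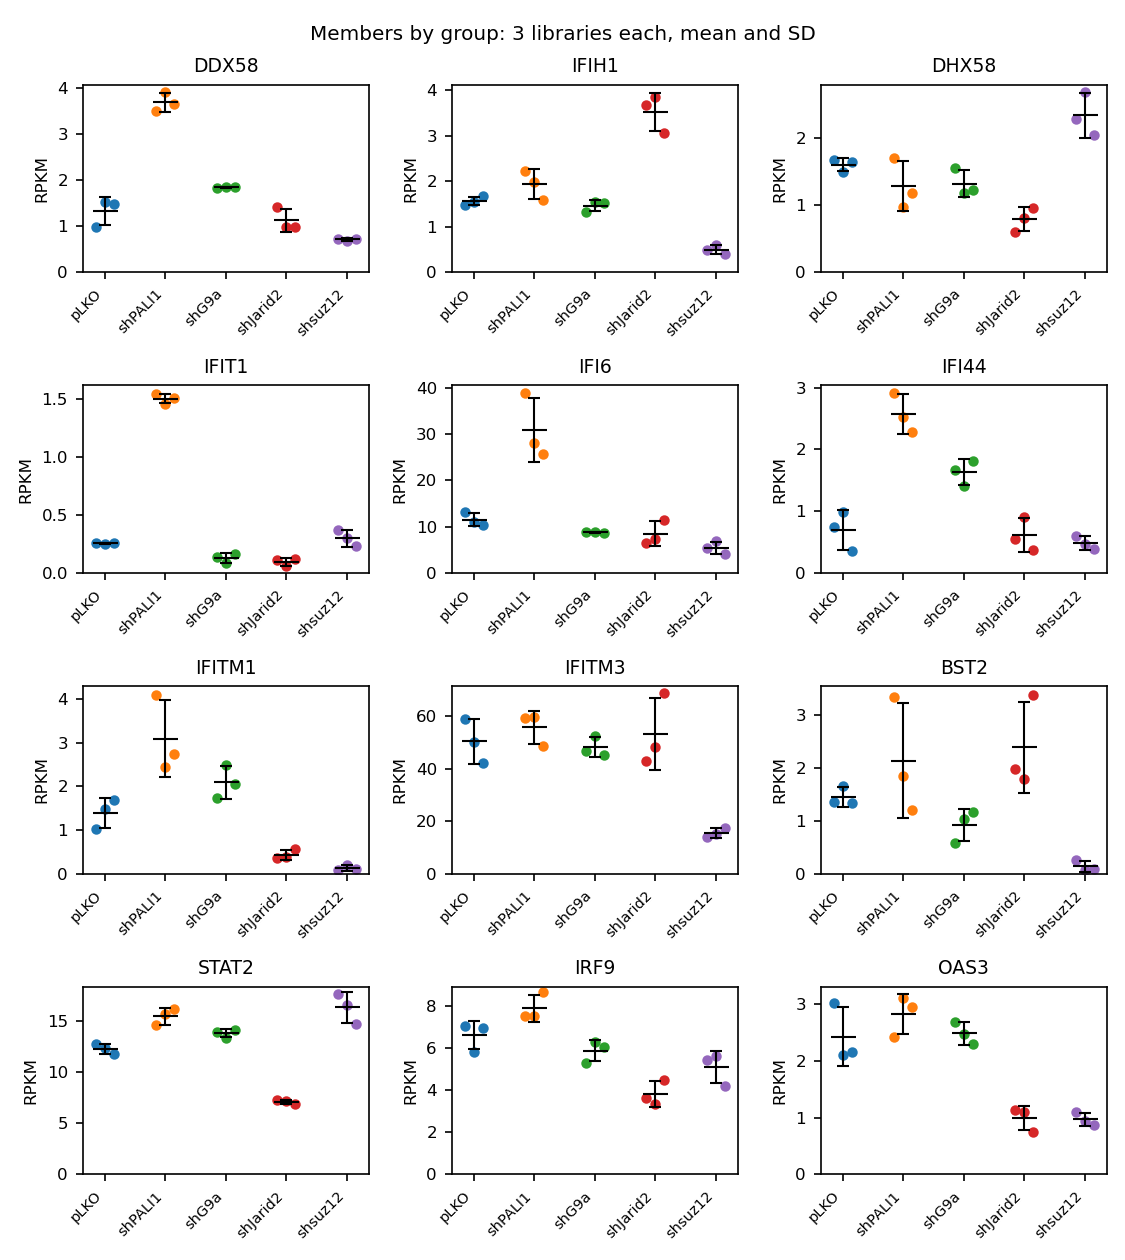
RPKM of 12 interferon-stimulated genes in each library (points), with the mean (long bar) and SD (error bar) of each group of 3. The shPALI1 points stand above all others for DDX58, IFIT1, IFI6 and IFI44, the shJarid2 points for IFIH1, and the shsuz12 points lie near 0 for IFITM1 and BST2.

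Of the 5 transcription factor genes, 3 rose under shPALI1 and 0 fell, while 16.5% of all tested genes rose and 25.1% fell. SP100, among the 5, was tested only through shG9a and shJarid2. STAT2, on chromosome 12, encodes a subunit of ISGF3. It was at 12.7, 12.3 and 11.8 RPKM in pLKO, 14.6, 15.7 and 16.2 in shPALI1, 14, 13.4 and 14.2 in shG9a, 7.3, 7.16 and 6.92 in shJarid2 and 17.7, 16.6 and 14.7 in shsuz12. STAT2 rose by 0.31 ± 0.07 under shPALI1 (adjusted p = 0.0024) and by 0.38 ± 0.07 under shsuz12 (0.00033), and it fell by 0.71 ± 0.07 under shJarid2 (1.2e-06). The 3 shJarid2 libraries were the lowest of the 15. In shG9a the change of 0.16 ± 0.07 did not pass (0.072) but did with median ratio scaling (0.0187), quantile normalization (0.0179) and TPM (0.0294).

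IRF9, the DNA-binding part of ISGF3 encoded on chromosome 14, was at 7.04, 5.83 and 6.95 RPKM in pLKO, 7.5, 7.54 and 8.64 in shPALI1, 5.29, 6.27 and 6.07 in shG9a, 3.61, 3.32 and 4.5 in shJarid2 and 5.44, 5.64 and 4.21 in shsuz12. The gene fell by 0.66 ± 0.11 under shJarid2 (adjusted p = 0.00023) and by 0.32 ± 0.11 under shsuz12 (0.027), and its change under shPALI1, 0.23 ± 0.11, did not pass (0.13). Under shsuz12 the call was lost without pLKO replicate 1 (0.0898), pLKO replicate 3 (0.0825) or shsuz12 replicate 3 (0.14), and with median ratio scaling (0.128). STAT2 and IRF9 were thus both lower under shJarid2, while under shsuz12 STAT2 was higher and IRF9 lower.

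IRF7, on chromosome 11, encodes the factor that amplifies interferon production. It was at 2.42, 2.36 and 2.51 RPKM in pLKO, 3.68, 3.49 and 2.93 in shPALI1, 2.52, 2.85 and 2.87 in shG9a, 3.72, 4.29 and 6.07 in shJarid2 and 2.33, 2.89 and 2.91 in shsuz12. IRF7 rose by 0.71 ± 0.13 under shJarid2 (adjusted p = 0.0003), where replicate 3 was the highest of all libraries, and by 0.34 ± 0.13 under shPALI1 (0.041). That second call was lost when any 1 pLKO library was left out (0.0691 to 0.0971), without shPALI1 replicate 1 (0.128) and without shPALI1 replicate 2 (0.106).

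IRF1, a factor that also acts downstream of interferon gamma, is on chromosome 5 and was at 1.14, 0.866 and 1.09 RPKM in pLKO, 1.89, 1.8 and 1.23 in shPALI1, 0.827, 0.926 and 1.08 in shG9a, 0.427, 0.631 and 0.814 in shJarid2 and 0.756, 0.895 and 0.982 in shsuz12. It rose by 0.37 ± 0.12 under shPALI1 (adjusted p = 0.024) and fell by 0.33 ± 0.12 under shJarid2 (0.036), with no overlap with pLKO in either. The rise was lost without pLKO replicate 2 (0.0899), shPALI1 replicate 1 (0.0947) or shPALI1 replicate 2 (0.0851). The fall was lost without pLKO replicate 1 (0.104), pLKO replicate 3 (0.0923), shJarid2 replicate 1 (0.146) or shJarid2 replicate 2 (0.0687). SP100, which encodes a nuclear body protein, lies outside the naming rule and is named after its values were seen, as are USP18, DTX3L and BST2 below, so that each tested gene is given. SP100 fell by 0.30 ± 0.09 under shsuz12 (adjusted p = 0.011), which did not hold without pLKO replicate 2 (0.0513).

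Of the 7 genes of double-stranded RNA enzymes, RNA editing and RNA decay, 4 were tested, and 0 of them passed under shPALI1. Of all tested genes, 16.5% rose and 25.1% fell there. OAS3, on chromosome 12 between OAS1 and OAS2, makes the 2-5A messenger that switches on RNase L. It was at 3.02, 2.1 and 2.16 RPKM in pLKO, 2.43, 3.11 and 2.94 in shPALI1, 2.69, 2.47 and 2.29 in shG9a, 1.13, 1.1 and 0.75 in shJarid2 and 1.1, 0.936 and 0.876 in shsuz12. OAS3 fell by 0.78 ± 0.12 under shJarid2 (adjusted p = 7.8e-05) and by 0.79 ± 0.12 under shsuz12 (6.6e-05), and these 6 libraries lay below the 9 others.

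EIF2AK2, on chromosome 2, encodes PKR, the kinase that stops translation on binding double-stranded RNA. It was at 5.66, 7.02 and 7.13 RPKM in pLKO, 8.35, 9.1 and 8.85 in shPALI1, 5.24, 4.6 and 4.35 in shG9a, 6.69, 5.96 and 3.75 in shJarid2 and 4.45, 3.39 and 3.38 in shsuz12. EIF2AK2 fell by 0.68 ± 0.15 under shsuz12 (adjusted p = 0.0016) and by 0.41 ± 0.15 under shG9a (0.043). The call in shG9a was lost without pLKO replicate 2 (0.12), pLKO replicate 3 (0.122), shG9a replicate 2 (0.0994) or shG9a replicate 3 (0.128), with median ratio scaling (0.0854) and with TPM (0.221). Under shPALI1 its change of 0.37 ± 0.15 did not pass (0.065), but did with median ratio scaling (0.046), quantile normalization (0.0169) and the 6 libraries alone (0.0144). Under shJarid2 it passed as lower only without replicate 1 of that group (0.0427).

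ADAR, on chromosome 1, encodes the editor that marks the cell's own double-stranded RNA by turning adenosine to inosine. It was at 61.5, 60.2 and 59.3 RPKM in pLKO, 59, 65.8 and 64.8 in shPALI1, 48.8, 47.9 and 44.9 in shG9a, 47.7, 45.3 and 33.9 in shJarid2 and 63.1, 54.7 and 53.3 in shsuz12. ADAR fell by 0.52 ± 0.11 under shJarid2 (adjusted p = 0.001) and by 0.35 ± 0.11 under shG9a (0.017). The shG9a call was lost without shG9a replicate 3 (0.0631), with quantile normalization (0.159) and with TPM (0.218). ISG20, an exonuclease gene on chromosome 15, was at 1.6, 1.28 and 1.13 RPKM in pLKO, 1.51, 1.52 and 1.54 in shPALI1, 2.34, 2.76 and 2.57 in shG9a, 1.51, 1.07 and 1.78 in shJarid2 and 1.77, 1.47 and 1.54 in shsuz12. It passed under shG9a only, where it rose by 0.61 ± 0.11 (adjusted p = 0.00053) and the 3 libraries were the highest of the 15.

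The ISG15 group had members that fell under each hairpin, with 2 of 4 genes lower under shPALI1, 2 under shG9a, 3 under shJarid2 and 4 under shsuz12, and 0 higher; the shares of all tested genes lower were 25.1%, 24.7%, 27.2% and 32.8%. One of the falls under each hairpin was HERC5, tested only because it was high in pLKO, and of the other 3 genes 1, 1, 2 and 3 fell. ISG15, on chromosome 1, encodes a ubiquitin-like protein that is coupled to new proteins after interferon. It was at 57.7, 49.1 and 47.9 RPKM in pLKO, 70.7, 65.9 and 58.9 in shPALI1, 36.6, 41.9 and 33.2 in shG9a, 33.6, 33.9 and 49.4 in shJarid2 and 26.3, 28 and 31.6 in shsuz12. ISG15 fell by 0.83 ± 0.14 under shsuz12 (adjusted p = 0.00018), by 0.46 ± 0.14 under shG9a (0.015) and by 0.41 ± 0.14 under shJarid2 (0.022), where replicate 3 was within the pLKO range. The shG9a call was lost without pLKO replicate 1 (0.0674) or shG9a replicate 3 (0.0696), and the shJarid2 call without pLKO replicate 1 (0.0909), shJarid2 replicate 1 (0.0898) or shJarid2 replicate 2 (0.0935). All 3 shPALI1 libraries lay above pLKO, with a change of 0.33 ± 0.14 that did not pass (0.069) but did with median ratio scaling (0.0244), quantile normalization (0.00247), TPM (0.0106) and the 6 libraries alone (0.0251).

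HERC5, on chromosome 4, encodes the ligase that couples ISG15 to its substrates. It was at 1.49, 1.46 and 1.37 RPKM in pLKO, 0.915, 0.537 and 0.621 in shPALI1, 0.898, 0.767 and 0.793 in shG9a, 0.808, 0.831 and 0.708 in shJarid2 and 0.367, 0.61 and 0.449 in shsuz12. The 3 pLKO libraries were above the other 12, and HERC5 was the 1 tested gene lower under all 4 hairpins: it fell by 0.54 ± 0.10 under shPALI1 (adjusted p = 0.00074), 0.42 ± 0.10 under shG9a (0.0037), 0.45 ± 0.10 under shJarid2 (0.0018) and 0.73 ± 0.10 under shsuz12 (3.4e-05). Since it met the filter only through pLKO, a fall somewhere was a condition of its test. HERC6, its neighbour on the same strand, was at 2.54, 2.53 and 2.36 RPKM in pLKO, 1.66, 1.65 and 1.67 in shPALI1, 2.36, 2.23 and 2.44 in shG9a, 2.06, 1.82 and 1.65 in shJarid2 and 1.63, 1.98 and 1.58 in shsuz12. HERC6 fell by 0.39 ± 0.08 under shPALI1 (adjusted p = 0.0015), by 0.29 ± 0.08 under shJarid2 (0.0076) and by 0.35 ± 0.08 under shsuz12 (0.0021), but not under shG9a, where it overlapped pLKO. The shJarid2 call of HERC6 was lost with quantile normalization (0.0825) and with the 6 libraries alone (0.0529). USP18, the protease that removes ISG15, fell by 0.43 ± 0.13 under shsuz12 (adjusted p = 0.014), which did not hold without pLKO replicate 1 (0.0774) or shsuz12 replicate 2 (0.0614).

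PARP9 and DTX3L, on chromosome 3, encode a pair of proteins that act together as an ADP-ribosylating ubiquitin ligase. Their gene models overlap head to head by 340 bases, and no strand-specific counting is stated, so reads in the overlap cannot be assigned to one of them. PARP9 was at 2.57, 2.85 and 2.62 RPKM in pLKO, 3.57, 3.36 and 3.31 in shPALI1, 3.46, 3.4 and 3.66 in shG9a, 2.87, 2.92 and 2.71 in shJarid2 and 2.21, 1.9 and 1.81 in shsuz12. It rose by 0.26 ± 0.07 under shPALI1 (adjusted p = 0.0095) and by 0.29 ± 0.07 under shG9a (0.0047), and it fell by 0.31 ± 0.07 under shsuz12 (0.0025), a call lost with TPM (0.0553). DTX3L rose by 0.33 ± 0.12 under shJarid2 (adjusted p = 0.035), although its libraries overlapped pLKO. That call was lost without pLKO replicate 1 (0.0782), pLKO replicate 3 (0.0991), shJarid2 replicate 1 (0.157) or shJarid2 replicate 2 (0.0885). In shPALI1 DTX3L passed as higher only under alternatives, among them without shPALI1 replicate 1 (0.0479).

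The genes of entry and release restriction fell together under shsuz12, 4 of 4, where 32.8% of all tested genes fell. On the log2(RPKM + 1) scale IFITM2 and IFITM3 under shsuz12 had the largest changes of any tested gene of the list against pLKO. As shares of the pLKO mean RPKM, BST2 was lowest there at 9.34%, then IFITM1 at 9.43%, IFITM2 at 24.5% and IFITM3 at 30.8%. IFITM1, IFITM2 and IFITM3 encode small membrane proteins that keep viruses from fusing with the cell, and BST2 encodes tetherin, which holds budding viruses at the surface. The IFITM genes lie side by side on chromosome 11 and are similar copies, and the models of IFITM2 and IFITM1 overlap. Reads may thus have been shared or dropped among the IFITM genes. IFITM3 was at 59, 49.9 and 42 RPKM in pLKO, 59.1, 59.5 and 48.5 in shPALI1, 46.6, 52.4 and 45.2 in shG9a, 42.8, 48.2 and 68.7 in shJarid2 and 13.9, 15.2 and 17.4 in shsuz12. The 3 shsuz12 libraries were below all 12 others, and IFITM3 fell by 1.63 ± 0.16 there (adjusted p = 1.3e-06).

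IFITM2 was at 14.2, 12.6 and 13.3 RPKM in pLKO, 8.95, 8.67 and 9.08 in shPALI1, 13, 16.5 and 10.8 in shG9a, 9.78, 8.29 and 13.3 in shJarid2 and 2.83, 2.33 and 4.67 in shsuz12. It fell by 1.78 ± 0.19 under shsuz12 (adjusted p = 2.9e-06) and by 0.53 ± 0.19 under shPALI1 (0.036). The shPALI1 call was lost without any 1 of the 3 pLKO libraries (0.0995, 0.0578 and 0.0722) or the 3 shPALI1 libraries (0.0733, 0.0858 and 0.0704), and with median ratio scaling (0.056). Without shJarid2 replicate 3 IFITM2 passed as lower under shJarid2 (0.0307).

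IFITM1 was at 1.02, 1.49 and 1.68 RPKM in pLKO, 4.09, 2.43 and 2.74 in shPALI1, 1.74, 2.48 and 2.04 in shG9a, 0.353, 0.379 and 0.56 in shJarid2 and 0.072, 0.206 and 0.116 in shsuz12. Unlike IFITM2 it was higher under shPALI1, where it rose by 0.76 ± 0.15 (adjusted p = 0.001), and lower under shJarid2 and shsuz12, where it fell by 0.74 ± 0.15 (0.00095) and 1.07 ± 0.15 (3.8e-05). Under shG9a its change of 0.37 ± 0.15 did not pass (0.06) but did without pLKO replicate 3 (0.0441) and without shG9a replicate 1 (0.0492). BST2, on chromosome 19, was at 1.35, 1.66 and 1.35 RPKM in pLKO, 3.35, 1.86 and 1.22 in shPALI1, 0.577, 1.03 and 1.16 in shG9a, 1.98, 1.8 and 3.39 in shJarid2 and 0.253, 0.0726 and 0.0815 in shsuz12. Its shsuz12 libraries were the 3 lowest, and BST2 fell by 1.11 ± 0.22 there (adjusted p = 0.00069).

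**Figure D4:**
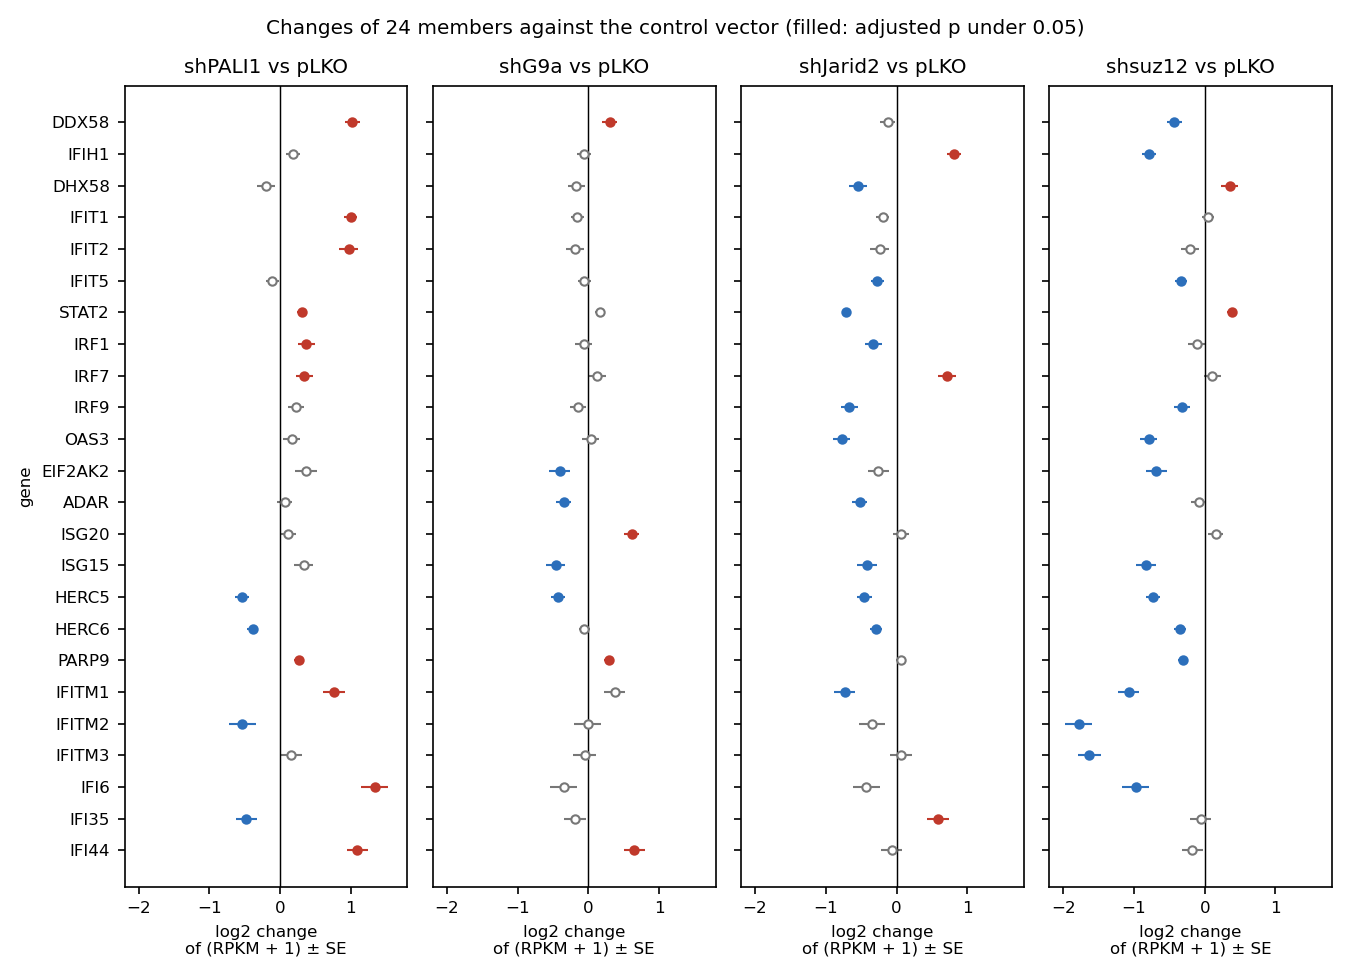
log2 change of (RPKM + 1) against pLKO with its SE for the 24 interferon-stimulated genes that met the naming rule, 1 panel per hairpin; filled points had an adjusted p under 0.05 (red higher, blue lower) and open points did not. Filled points lie mostly to the right in the shPALI1 panel, up to 1.34 for IFI6, and mostly to the left in the shsuz12 panel, down to -1.78 for IFITM2.

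The IFI genes, named for their induction by interferon, held the largest rises under shPALI1 on the log2(RPKM + 1) scale, IFI6 and IFI44. As ratios of mean RPKM to pLKO among the 28 tested genes, IFIT1 came first at 5.91, then IFI44 at 3.71, IFIT2 at 3.69, DDX58 at 2.79 and IFI6 at 2.69. Among genes under the filter, OAS2 was at 15.9 times pLKO, IFI44L at 6.10, RSAD2 at 4.83 and IFI27 at 4.09. Their pLKO means were only 0.0068 to 0.25 RPKM. IFI6, on chromosome 1, encodes a membrane protein of mitochondria and endoplasmic reticulum. It was at 13.1, 11 and 10.4 RPKM in pLKO, 38.9, 28.2 and 25.8 in shPALI1, 8.88, 8.8 and 8.68 in shG9a, 6.54, 7.43 and 11.5 in shJarid2 and 5.28, 6.79 and 4.15 in shsuz12. The 3 shPALI1 libraries stood above the 12 others, with replicate 1 the highest, and IFI6 rose by 1.34 ± 0.19 there (adjusted p = 7.1e-05). Under shsuz12 IFI6 fell by 0.98 ± 0.19 (0.00062). Under shJarid2 its change of -0.43 ± 0.19 did not pass (0.076) but did without shJarid2 replicate 3 (0.00573) and with TPM (0.0262), and under shG9a -0.35 ± 0.19 (0.16) passed with the 6 libraries alone (0.0125).

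IFI44, on chromosome 1 next to IFI44L, was at 0.75, 0.982 and 0.348 RPKM in pLKO, 2.91, 2.53 and 2.28 in shPALI1, 1.66, 1.41 and 1.82 in shG9a, 0.549, 0.906 and 0.372 in shJarid2 and 0.598, 0.471 and 0.385 in shsuz12. IFI44 rose by 1.09 ± 0.15 under shPALI1 (adjusted p = 5e-05) and by 0.65 ± 0.15 under shG9a (0.0029), the 2 groups whose libraries lay above all others. IFI35, on chromosome 17, encodes a partner of the protein NMI. It was at 2.52, 2.16 and 1.37 RPKM in pLKO, 1.36, 0.814 and 1.28 in shPALI1, 1.65, 1.74 and 1.45 in shG9a, 3.44, 2.83 and 4.31 in shJarid2 and 1.65, 1.95 and 1.99 in shsuz12. IFI35 rose by 0.59 ± 0.15 under shJarid2 (adjusted p = 0.005) and fell by 0.48 ± 0.15 under shPALI1 (0.022). The fall was lost without pLKO replicate 1 (0.103), pLKO replicate 2 (0.0712) or shPALI1 replicate 2 (0.102).

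The 12 genes under the filter were IFIT3, IFI44L, IFI27, MX1, MX2, OAS1, OAS2, OASL, RSAD2, PARP14, SAMD9 and SAMD9L, and several of them are among the most inducible by interferon in other cells. MX1, which encodes a GTPase that traps viral particles, stood between 0.121 and 0.943 RPKM over the 15 libraries, and SAMD9L was at 0 in 14 of 15. A fit with no filter gives values for these genes that rest on few reads. In it, 11.4% of all 22019 genes fitted were called higher and 14.4% lower under shPALI1, and 6 of the 12 passed as higher under shPALI1 and 0 as lower: IFI27, IFIT3, RSAD2, OASL, IFI44L and OAS2. RSAD2, which encodes the antiviral enzyme viperin, was at 0.0691, 0.125 and 0.122 RPKM in pLKO, 0.512, 0.455 and 0.56 in shPALI1, 0.105, 0.0187 and 0.0199 in shG9a, 0.036, 0 and 0.0686 in shJarid2 and 0.206, 0.168 and 0.307 in shsuz12. OASL, a relative of the OAS enzymes, was at 0.699, 0.602 and 0.412 RPKM in pLKO, 1.04, 1.39 and 0.978 in shPALI1, 0.317, 0.473 and 0.502 in shG9a, 0.152, 0.0978 and 0.116 in shJarid2 and 0.372, 0.355 and 0.239 in shsuz12. For both, the 3 shPALI1 libraries were the highest of the 15.

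Under shG9a, 2 of these 12 genes passed as higher, OAS1 and MX2, and 0 as lower. OAS1 was at 0.57, 0.347 and 0.475 RPKM in pLKO, 0.571, 0.439 and 0.44 in shPALI1, 0.997, 0.86 and 0.772 in shG9a, 0.222, 0.205 and 0.202 in shJarid2 and 0.156, 0.149 and 0.0418 in shsuz12. It was lower under shJarid2 (log2 change -0.27, adjusted p = 0.0064) and under shsuz12 (-0.39, 0.00051), as was OASL. Under shsuz12 MX1, PARP14 and SAMD9 were also lower and RSAD2 higher. Over all 40 genes, the fit with no filter called 15 higher and 3 lower under shPALI1. It called 5 and 4 under shG9a (11.9% and 14.1% of all genes fitted), 3 and 14 under shJarid2 (14.4% and 16.7%), and 3 and 21 under shsuz12 (14.2% and 18.8%).

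Contrasts of 2 knockdowns compare the means of the hairpin groups without that of pLKO. The pLKO libraries still entered the filter and the shared estimate of the spread. Between shPALI1 and shsuz12, 19 of the 28 were higher in shPALI1 and 2 lower (30.9% and 25.0% of all genes), with a median difference of 0.56 against 0.05 over all genes; of the 24 without those tested only through 1 or 2 groups, 16 were higher and 2 lower. The largest on this scale were IFI6 at 2.32 ± 0.19, IFITM1 at 1.83 ± 0.15 and IFITM3 at 1.78 ± 0.16. DHX58 and IFI35 were the 2 lower in shPALI1, at -0.55 ± 0.12 and -0.42 ± 0.15, and IFI35 did not pass without shPALI1 replicate 2 (0.137), shsuz12 replicate 2 (0.0786) or shsuz12 replicate 3 (0.0855), which left 1.

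Between shPALI1 and shG9a, 12 were higher in shPALI1 and 3 lower (24.1% of all genes in each direction), with a median difference of 0.21 against 0.01, and with TPM 9 were higher and 5 lower. Leaving out the 4 genes tested only through the groups in which they were high, IFIT1 and IFIT2 among them, 10 of 24 were higher in shPALI1 and 3 lower. IFI6 stood at 1.69 ± 0.19 (adjusted p = 5.4e-06), IFIT2 at 1.16 ± 0.13, IFIT1 at 1.15 ± 0.09 and DDX58 at 0.72 ± 0.11. ISG20, at -0.49 ± 0.11, was higher in shG9a. Between shPALI1 and shJarid2, 15 were higher in shPALI1 and 3 lower (30.5% and 31.8%), with a median of 0.27 against 0.00; without shJarid2 replicate 3 the counts were 14 and 2, and among the 24 genes they were 13 and 3. STAT2 was at 1.02 ± 0.07 and IFITM1 at 1.50 ± 0.15, while IFIH1 was at -0.63 ± 0.10 and IFI35 at -1.07 ± 0.15.

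The hairpins against the PRC2 subunits SUZ12 and JARID2 also differed from each other in these genes. Between shsuz12 and shJarid2, 5 were higher in shsuz12 and 15 lower (25.2% and 33.8% of all genes), with a median of -0.32 against -0.05. Among the 24 genes without those tested only through 1 or 2 groups, 4 were higher and 13 lower. STAT2 was 1.09 ± 0.07 and DHX58 0.90 ± 0.12, and IFITM3 was -1.69 ± 0.16, IFIH1 -1.60 ± 0.10 and BST2 -1.55 ± 0.22. Rises there numbered 3 without shJarid2 replicate 2, shsuz12 replicate 1 or shsuz12 replicate 2, and without shJarid2 replicate 3 the counts were 5 and 12. Between shG9a and shsuz12, 17 were higher in shG9a and 2 lower (25.8% and 19.8%), with a median of 0.34 against 0.04. Among the same 24 genes, 15 were higher and 2 lower. IFITM2 at 1.77 ± 0.19 and IFITM3 at 1.58 ± 0.16 led them, and STAT2 and DHX58 were the 2 lower, of which STAT2 did not pass without shG9a replicate 2 (0.0636), shsuz12 replicate 1 (0.0845) or shsuz12 replicate 2 (0.0561), which left 1. Between shG9a and shJarid2, 10 were higher in shG9a and 4 lower (27.2% and 28.6%), with a median of 0.14 against 0.00, and 11 and 6 without shJarid2 replicate 3. Among the 24 genes the counts were 10 and 4.

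Among tested genes with an ISRE core match in a promoter window, 5 of 15 rose and 1 fell under shPALI1, 3 and 3 under shG9a, 2 and 5 under shJarid2, and 0 and 11 under shsuz12. Among the 8 tested genes whose windows held none, 3 rose and 2 fell under shPALI1, 1 and 1 under shG9a, 1 and 5 under shJarid2, and 1 and 4 under shsuz12. The remaining 5 tested genes had no window in the table. The 15 include IFIT1 and HERC5, tested only through the group in which each was high. Over all 336 tested genes with a match, 22.9% rose and 21.1% fell under shPALI1, 19.9% and 22.0% under shG9a, 25.0% and 27.1% under shJarid2, and 20.8% and 34.2% under shsuz12. The counts within the list are small and are given as a description, with no test.

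Genes upstream of the list were counted from lists fixed for this purpose, also with earlier results of these data known. The 15 interferon genes themselves were at or near 0: 0 could be tested, 8 were at 0 in every library, and the highest value of any was 0.124 RPKM. Of the 19 receptor and JAK-STAT genes, 16 were tested; 3 rose and 3 fell under shPALI1, 4 and 4 under shG9a, 6 and 4 under shJarid2, and 5 and 3 under shsuz12, with medians of 0.03, 0.08, 0.19 and 0.08. Such counts are read against the shares of all tested genes higher and lower, 16.5% and 25.1% under shPALI1, 18.4% and 24.7% under shG9a, 23.8% and 27.2% under shJarid2, and 21.1% and 32.8% under shsuz12, here and in the lists that follow; nothing particular to these lists is read from them. Rises under shG9a numbered 2 without shG9a replicate 2.

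IFNAR1, the first receptor chain, was at 17.7, 20.4 and 19.5 RPKM in pLKO, 9.79, 12.2 and 11.8 in shPALI1, 10.4, 11.6 and 11.2 in shG9a, 25, 23.7 and 19.5 in shJarid2 and 9.08, 8.42 and 8.03 in shsuz12. It fell by 0.72 ± 0.10 under shPALI1 (adjusted p = 5.1e-05), by 0.74 ± 0.10 under shG9a (3.9e-05) and by 1.08 ± 0.10 under shsuz12 (6.6e-07). Under shJarid2 it passed as higher only without replicate 3 of that group (0.00639). IFNAR2, the other chain, rose by 0.44 ± 0.07 under shJarid2 (adjusted p = 0.00012), by 0.22 ± 0.07 under shG9a (0.019) and by 0.17 ± 0.07 under shsuz12 (0.049). The shG9a call of IFNAR2 was lost without pLKO replicate 2 (0.0826) or shG9a replicate 2 (0.0777). The shsuz12 call was lost without pLKO replicate 1 (0.0848), pLKO replicate 2 (0.181) or any 1 shsuz12 library (0.0833 to 0.107). IL10RB, a chain of the interferon lambda receptor, fell by 1.31 ± 0.09 under shPALI1 (adjusted p = 6.9e-08) and rose by 0.35 ± 0.09 under shJarid2 (0.0051).

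JAK1 was low, at 1.23, 1.16 and 1.77 RPKM in pLKO, 1.78, 2.35 and 2.25 in shPALI1, 1.95, 1.58 and 1.68 in shG9a, 1.24, 1.22 and 0.827 in shJarid2 and 2, 2.11 and 2.35 in shsuz12. It rose by 0.39 ± 0.12 under shPALI1 (adjusted p = 0.016) and by 0.41 ± 0.12 under shsuz12 (0.0095). The shPALI1 call of JAK1 was lost without pLKO replicate 1 (0.0593), pLKO replicate 2 (0.0692), shPALI1 replicate 2 (0.0646) or shPALI1 replicate 3 (0.0547). TYK2, the other kinase of the receptor, rose by 0.44 ± 0.08 under shsuz12 (adjusted p = 0.00048).

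**Figure D5:**
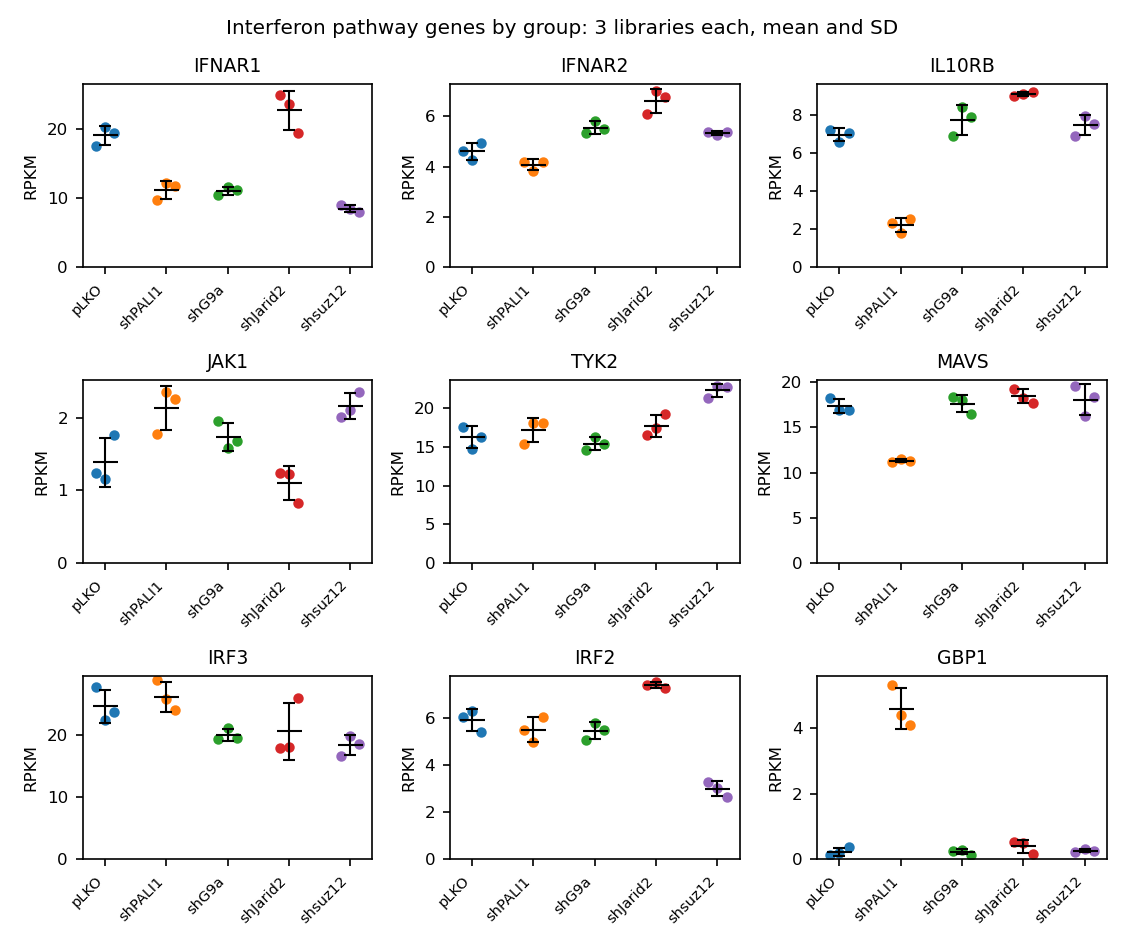
RPKM of 9 genes of interferon signalling and response outside the list of 40 in each library (points), with the mean (long bar) and SD (error bar) of each group of 3. MAVS and IL10RB are low only in the 3 shPALI1 libraries, and GBP1 is above 4 RPKM only there.

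Of 27 genes of nucleic acid sensing and its signalling, 21 were tested: 3 rose and 5 fell under shPALI1 (16.5% and 25.1% of all genes), 2 and 5 under shG9a, 6 and 5 under shJarid2, and 1 and 7 under shsuz12. Rises under shPALI1 numbered 1 without pLKO replicate 3 or shPALI1 replicate 1. MAVS, the mitochondrial adaptor that RIG-I and MDA5 need, was at 18.2, 16.9 and 16.9 RPKM in pLKO, 11.2, 11.5 and 11.3 in shPALI1, 18.4, 18 and 16.5 in shG9a, 19.3, 18.3 and 17.7 in shJarid2 and 19.6, 16.2 and 18.3 in shsuz12. It fell by 0.58 ± 0.07 under shPALI1 (adjusted p = 1.9e-05) and did not pass elsewhere. IRF3, the factor downstream of MAVS, fell by 0.40 ± 0.13 under shsuz12 (adjusted p = 0.015), which did not hold without pLKO replicate 1 (0.0707) or shsuz12 replicate 1 (0.0645). In shJarid2 IRF3 passed as lower only under alternatives, among them without replicate 3 (0.00171). IKBKE, the inducible kinase of this route, rose by 0.73 ± 0.12 under shG9a (adjusted p = 0.00028) and by 0.87 ± 0.12 under shsuz12 (3.8e-05).

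NFKB1, which encodes a subunit of NF-kappaB, rose by 0.58 ± 0.07 under shPALI1 (adjusted p = 1e-05). It fell by 0.33 ± 0.07 under shG9a (0.0012), 0.23 ± 0.07 under shJarid2 (0.0094) and 0.62 ± 0.07 under shsuz12 (3e-06). The shG9a call of NFKB1 was lost under TPM (0.0735). IRF2, a factor that can repress ISRE promoters, fell by 0.79 ± 0.08 under shsuz12 (adjusted p = 2.3e-06) and rose by 0.28 ± 0.08 under shJarid2 (0.0105). RNASEH2A and RNASEH2B, subunits of the enzyme that removes RNA from RNA-DNA hybrids, fell under every hairpin, most under shsuz12. There they fell by 1.22 ± 0.12 and 1.11 ± 0.08 (adjusted p = 1e-06 and 1.1e-07). Under shPALI1, shG9a and shJarid2 RNASEH2A fell by 0.32, 0.53 and 0.53 (0.039, 0.0021 and 0.0015). RNASEH2B fell by 0.37, 0.47 and 0.36 in the same order (0.0028, 0.00045 and 0.0023).

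Of 40 other interferon-stimulated genes outside the list, 39 were in the table and 22 were tested: 7 rose and 3 fell under shPALI1, 8 and 3 under shG9a, 5 and 4 under shJarid2, and 6 and 7 under shsuz12, with medians of -0.02, 0.03, 0.11 and -0.15. Rises under shG9a numbered 5 without shG9a replicate 2, and rises under shJarid2 numbered 2 without pLKO replicate 2 and 3 without pLKO replicate 1, pLKO replicate 3 or shJarid2 replicate 2. GBP1, a guanylate-binding protein gene that interferon gamma induces strongly, was at 0.133, 0.206 and 0.366 RPKM in pLKO, 5.31, 4.39 and 4.08 in shPALI1, 0.265, 0.28 and 0.137 in shG9a, 0.539, 0.49 and 0.158 in shJarid2 and 0.22, 0.315 and 0.245 in shsuz12. GBP1 reached 1 RPKM only in shPALI1, so high values there were a condition of its test. It rose by 2.18 ± 0.13 under shPALI1 (adjusted p = 1.3e-08) and did not pass under the other hairpins. On the log2(RPKM + 1) scale that change was larger than any of the 28 genes of the list showed against pLKO. GBP2, from the same family, rose under all 4, by 1.90 ± 0.14, 1.05 ± 0.14, 0.42 ± 0.14 and 0.74 ± 0.14 in shPALI1, shG9a, shJarid2 and shsuz12 (adjusted p from 1.2e-07 to 0.019). SHISA5 and LGALS3BP were also higher under all 4, with SHISA5 at 1.54 ± 0.09 under shJarid2 and LGALS3BP at 1.68 ± 0.11 under shG9a.

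Neighbouring genes of the list did not always move together. IFI44 and IFI44L, 3.7 kb apart, were both higher under shPALI1, IFI44L in the fit with no filter only (adjusted p = 0.0011). IFIT1 and IFIT5, 8.1 kb apart on the same strand, had different calls under shPALI1, where IFIT1 rose and the change of IFIT5, -0.11 ± 0.09, did not pass; the difference between the 2 genes was not tested. OAS1 and OAS3, 5.1 kb apart, were both lower under shJarid2 and shsuz12, and OAS1 alone was higher under shG9a, again in the fit with no filter. IFITM1 rose under shPALI1 while IFITM2, whose model overlaps it, fell, a pair whose reads cannot be told apart with certainty.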

How the data were processed

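RNA of 15 LNCaP samples in 5 groups was sequenced, and per the labels' protocols libraries were made from total RNA using NEBNext Ultra reagents. The deposited table held RPKM values for 26443 genes. Reads were aligned with STAR to hg38, per the submitters' processing notes, while for the counting tool, its annotation and any use of strand nothing is given in the sources used here. Another 32 names had no values, and 4 rows with a repeated name were left out. RPKM are not counts, so no count model was used. RPKM values were taken as log2(RPKM + 1), and 12711 genes with at least 1 RPKM in at least 3 of 15 libraries were fitted in 1 model of the 5 groups with limma 3.58.1 (eBayes with trend, two-sided, R 4.3.3). Adjusted p-values are Benjamini-Hochberg over all tested genes of a comparison, with a threshold of 0.05. Tables were handled with pandas 2.3.3 in Python 3.11.15.

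Reads per library came from the steps of 1 read in RPKM of short RNA genes of known length: 92.7% to 94.8% of those values were whole reads within 0.05. The 40 genes, the roles they are grouped by and the other gene lists were chosen with earlier results of these data known. Values in every library are given for genes that passed in at least 2 of the 4 comparisons with pLKO, and for the 6 smallest p of each such comparison among those whose 2 groups did not overlap. Of other lists, the 4 with the smallest p per comparison and the defining signalling genes could be named. Alternatives were other pseudocounts, filters and scalings, a model of the 2 groups alone, a replicate term and leaving out each library. Values of log2(RPKM + 1) were also simulated with normal noise for shPALI1 against pLKO over 12711 genes. Of genes whose RPKM + 1 was changed, 73 of 100 changed 1.5-fold and 96 of 100 changed 2-fold were recovered. Of 12511 unchanged genes, 3 were called. For low genes such changes are larger in RPKM itself, and far fewer genes were changed than were called in the data. Gene positions are from GENCODE 29 (GRCh38) and promoter windows from RefSeq (GRCh38.p14). The values of 1 gene of the other lists are not reported here.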

Additional observations from a re-analysis of the deposited data

How the results depend on the processing

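Of the 112 values of the 28 tested genes against pLKO, 56 passed, 38 of these under every alternative and 18 not under at least 1, while 16 others passed under at least 1, and 0 changed direction with a call. Between knockdowns, 107 of 168 passed, 79 of them under every alternative. One difference reversed: IFIT1 between shsuz12 and shJarid2, 0.25, was -0.071 with quantile normalization (the cause was not tested). With a mean RPKM of at least 3 only 11 of the list were tested, so counts (higher, lower) fell to 3 and 1 under shPALI1, 0 higher under shG9a, 2 and 4 under shJarid2 and 1 and 7 under shsuz12. Between knockdowns they fell to 5 and 1 (shPALI1 against shG9a), 7 and 0 (shPALI1 against shsuz12), 6 and 1 (shPALI1 against shJarid2), 3 and 8 (shsuz12 against shJarid2), 5 higher (shG9a against shsuz12) and 2 and 1 (shG9a against shJarid2). With no filter 40 genes were tested, which gave 5 lower for shPALI1 against shG9a, 29 and 1 for shPALI1 against shsuz12, 23 higher for shPALI1 against shJarid2 and 4 lower for shG9a against shsuz12. TPM gave 2 lower under shG9a and 5 lower for shPALI1 against shG9a, quantile normalization 5 lower for shPALI1 against shJarid2, a pseudocount of 0.1 gave 1 higher under shsuz12, and models of 6 libraries 7 lower under shJarid2 and 3 higher for shsuz12 against shJarid2. Median ratio scaling moved the median of all genes in shsuz12 against pLKO by 0.11, and TPM by 0.11, with TPM shifts of 0.10 for shG9a against pLKO, 0.14 for shG9a against shJarid2 and 0.14 for shsuz12 against shJarid2.

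Leaving out 1 library gave 8 to 10 higher and 2 to 4 lower under shPALI1, 3 to 5 and 1 to 4 under shG9a, 3 to 4 and 8 to 12 under shJarid2, and 1 to 2 and 15 to 17 under shsuz12. Between knockdowns the ranges were 8 to 11 and 2 to 3 (shPALI1 against shG9a), 18 to 19 and 1 to 2 (shPALI1 against shsuz12), 13 to 15 and 2 to 3 (shPALI1 against shJarid2), 3 to 5 and 11 to 13 (shsuz12 against shJarid2), 14 to 16 and 1 to 2 (shG9a against shsuz12), and 8 to 11 and 4 to 6 (shG9a against shJarid2). At these depths a gene of 2 kb at 1 RPKM rests on 21.1 to 38.7 reads.

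Replicate numbers showed no clear pairing of the libraries. Deviations of libraries with the same number correlated at -0.27 to 0.30, over 0.1 in 7 of 30 pairs. Those with other numbers correlated at -0.36 to 0.32, over 0.1 in 11 of 60 pairs. With a replicate block the counts (higher, lower) were 10 and 4 under shPALI1, 3 and 4 under shG9a, 4 and 10 under shJarid2 and 2 and 17 under shsuz12. Between knockdowns the block gave 11 and 4 (shPALI1 against shG9a), 18 and 2 (shPALI1 against shsuz12), 15 and 3 (shPALI1 against shJarid2), 5 and 15 (shsuz12 against shJarid2), 16 and 3 (shG9a against shsuz12) and 10 and 4 (shG9a against shJarid2).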
